A study of Rattus norvegicus with 16 samples.

Results

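The genes described here are 38 cell cycle and DNA replication genes in whole blood of saline-treated rats, chosen by symbol from a fixed list, of 26405 gene entries in all. Each symbol was found in every one of the 16 libraries. Rrm2 alone had a second entry, and the entry with the higher total was used. The libraries were counted per gene from RNA sequencing of blood whose alpha and beta globin mRNA had been reduced, and they held 21466776 to 31189549 estimated counts. All 16 came from adult male Sprague-Dawley rats of 85 to 90 days and form 1 group, the Saline Control rats, numbered 1 to 16. Each rat received 4 injections of saline at 1 ml/kg, 2 h apart, without food or water during that time, and blood was taken from the heart 3 h after the last injection. No treated group was compared. The question the design puts to these genes is how stable their transcripts were among control animals.

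Dividing cells copy their DNA in S phase and separate the copies in mitosis. Cyclin E and E2F1 drive entry into S phase, the MCM helicase unwinds the DNA, PCNA holds the polymerase on it, and ribonucleotide reductase, thymidylate synthase and thymidine kinase supply nucleotides. Mitosis is driven by cyclins A and B with CDK1, and by the Aurora and Polo kinases, while the spindle checkpoint holds back the anaphase-promoting complex until every chromosome is attached. Most mature blood cells do not divide. Red cell precursors, activated lymphocytes and thymocytes do, and young red cells released to the blood, called reticulocytes, still carry mRNA from their last divisions.

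Promoters of such genes often hold E2F sites (S phase genes) or a cell cycle homology region, CHR, with CCAAT boxes (mitotic genes). The 250 bases before the RefSeq start were searched on both strands in the 30 members that the promoter table held, in build GRCr8. The E2F forms were TTTCCCGC, TTTGGCGC, TTTCGCGC and TTTGCCGC, the CHR was TTTGAA and the CCAAT box was CCAAT, which reads ATTGG on the other strand. An E2F form occurred in 6 of the 30 (20%), namely Mcm2, Mcm5, Mcm6, Mcm7, Tyms and Cdk1, against 1.73% of all 33469 promoters of that length. The CHR letters occurred in 10 (33.3%, against 16.2%) and CCAAT in 22 (73.3%, against 34.0%). Shown here are 4 promoters that hold the most E2F and CHR matches, 1 from each of 4 functional groups, with ties settled by the number of CCAAT boxes, a choice made after the matches were seen. Capitals mark the matches, and each line ends at the base before the start.
Mcm2, chr4:122918095-122918344, minus strand: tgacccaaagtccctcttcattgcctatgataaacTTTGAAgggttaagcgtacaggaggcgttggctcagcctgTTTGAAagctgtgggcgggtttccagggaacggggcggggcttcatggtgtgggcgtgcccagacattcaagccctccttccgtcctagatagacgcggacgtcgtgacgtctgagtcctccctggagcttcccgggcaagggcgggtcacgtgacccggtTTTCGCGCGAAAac
Cdk1, chr20:19265043-19265292, plus strand: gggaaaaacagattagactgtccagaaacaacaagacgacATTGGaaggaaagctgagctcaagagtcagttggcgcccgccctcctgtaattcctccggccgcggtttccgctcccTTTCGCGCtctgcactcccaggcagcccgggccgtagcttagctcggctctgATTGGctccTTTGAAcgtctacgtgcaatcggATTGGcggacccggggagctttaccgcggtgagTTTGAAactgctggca
Mki67, chr1:199952594-199952843, minus strand: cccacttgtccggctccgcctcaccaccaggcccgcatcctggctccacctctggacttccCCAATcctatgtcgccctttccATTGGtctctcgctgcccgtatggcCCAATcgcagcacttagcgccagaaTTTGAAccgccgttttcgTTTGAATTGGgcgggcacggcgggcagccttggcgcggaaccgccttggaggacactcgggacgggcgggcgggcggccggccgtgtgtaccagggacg
Cdca8, chr5:142483200-142483449, minus strand: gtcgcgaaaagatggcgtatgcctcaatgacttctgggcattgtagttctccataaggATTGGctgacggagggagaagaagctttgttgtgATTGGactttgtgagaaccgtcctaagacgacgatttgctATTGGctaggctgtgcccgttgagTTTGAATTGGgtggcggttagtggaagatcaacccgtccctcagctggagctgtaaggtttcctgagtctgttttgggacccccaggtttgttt
In Mcm2 the E2F matches of both strands overlap by 4 bases. In Mki67 and Cdca8 the run TTTGAATTGG is a CHR and a CCAAT match that share 1 base. These matches describe letters and not binding.

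Levels are given as normalized counts, which are counts divided by a factor per library that makes the libraries comparable. Longer transcripts collect more counts, and no transcript lengths were used, so levels of different genes are not ranked against each other. In whole blood, fewer cells of a type and less RNA per cell cannot be told apart. Together the 38 genes took 878 ± 179 CPM (SD, n = 16), a count per 1000000 counts of the library. The lowest sum was 571.5 CPM in control 2, the highest 1207 CPM in control 12, and the second highest 1121 CPM in control 10. Counts of Tk1 made up 25.4% to 54.5% of this sum, with a median of 35.7%. The coefficient of variation (CV, the SD as a percent of the mean) had a median of 51.6% over the members, against 27.5% over 11528 genes whose mean was at least 20. Without control 12 these medians were 34.9% and 27.4%.

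**Figure D1:**
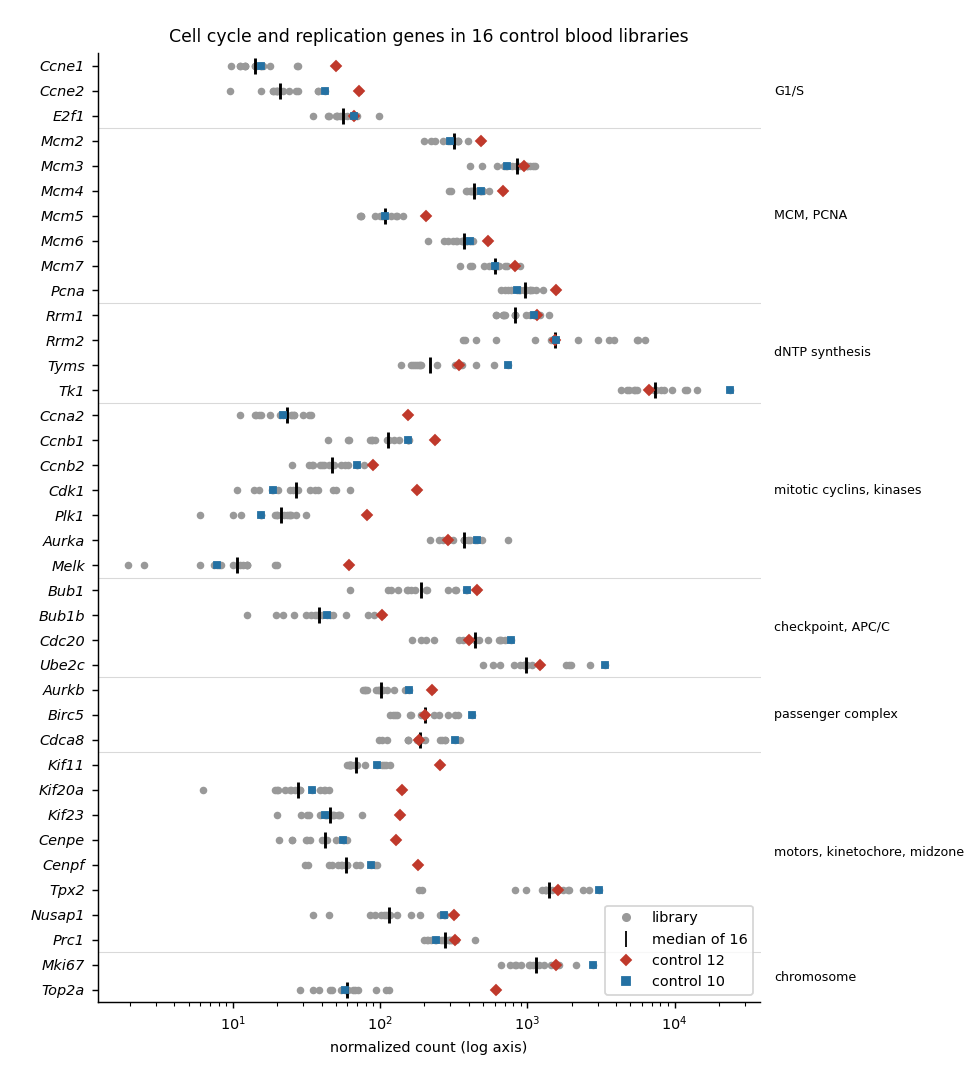
Normalized counts (log axis) of the 38 genes in 16 control libraries, grouped by role. Grey points are libraries, black ticks medians, red diamonds control 12 and blue squares control 10. Control 12 was highest for 23 genes and control 10 for 7, against 8.81% and 10.3% of the 11528 genes whose mean was at least 20.

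Markers of blood cells were present in every library, at 129 to 539 CPM for 5 T cell markers and 10014 to 24544 CPM for 5 reticulocyte markers. Some libraries also carried transcripts of other tissues. The summed level of 5 thymocyte markers was 364 CPM in control 12 and at most 57.6 CPM in the other 15, and that of 5 adipocyte markers 167 CPM against at most 9.50 CPM. The 5 hepatocyte markers reached 14776 CPM in control 2 and 416 CPM in control 8, and 5 cardiac muscle markers reached 11.8 CPM in control 10. Results are given with and without these libraries where they rest on them. The names of the deposited files begin with a code, written here as A to F. Code A covered controls 1 to 3, B controls 4, 5, 7, 8 and 10, C controls 6 and 9, D controls 11 to 14, E control 15 and F control 16. What the code stands for was not given. The study repeated its experiment on separate dates, and the labels do not say to which date a rat belonged. Differences between codes therefore cannot be told apart from differences between those experiments.

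The S phase helicase genes were among the steadiest members. All 6 MCM genes and Pcna had a CV between 20.7% and 29.0%. Mcm2 (ENSRNOG00000016316) ran from 197 to 488 normalized counts with a median of 318. Mcm3 ran from 408 to 1131 with a median of 857. Mcm4 ran from 293 to 679.6 with a median of 432. Control 12 was the highest library for Mcm2 and Mcm4, while Mcm3 was highest in control 6. Mcm5 ran from 73.1 to 206, with a median of 107. Mcm6 lay between 210.1 and 544, with a median of 369.6. Mcm7 (ENSRNOG00000001349) lay between 346 in control 8 and 889 in control 4, with a median of 606. Control 8 was the lowest library for Mcm2, Mcm3, Mcm6 and Mcm7, and for 19.0% of the 11528 genes whose mean was at least 20. Pcna, the polymerase clamp, ran from 665 to 1553 with a median of 966.

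The genes of deoxynucleotide synthesis had a CV of 81.3% (Rrm2), 58.0% (Tyms), 57.1% (Tk1) and 27.0% (Rrm1). Rrm1, the large subunit of ribonucleotide reductase, ran from 614 to 1407 normalized counts (median 826). Rrm2 (ENSRNOG00000008450), the small subunit made in S phase, ran from 366 in control 3 to 6305 in control 9 (median 1549, mean 2447 ± 1990, SD, n = 16), a 17.2-fold range. Controls 2, 3 and 6 had 377, 366 and 451, and controls 7, 9 and 13 had 5568, 6305 and 5596. Controls 6 and 9 share a file code, so low and high values occurred within 1 code. The second Rrm2 entry (ENSRNOG00000023272) held 14.1% to 34.3% of the counts of both and followed the first over the 16 libraries (Spearman rho 0.968). Both may share reads, so the division between them is uncertain. Tyms, thymidylate synthase, ran from 139 to 744 with a median of 218. Tk1 (ENSRNOG00000047314), thymidine kinase, ran from 4300.1 in control 11 to 23906 in control 10 (median 7302, mean 8732 ± 4989, SD, n = 16). Control 10 was the highest library for both Tyms and Tk1.

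Regulators of S phase entry had few counts. Ccne2, a cyclin E, ran from 9.60 to 72.1 normalized counts with a median of 21. The related Ccne1 averaged 17.6 ± 10.1 (SD, n = 16). Both were highest in control 12. E2f1, an activating E2F, ran from 35.0 to 98.1 with a median of 55.6 and was highest in control 6.

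The mitotic cyclin and kinase genes were highest in control 12, except Aurka. Ccnb1, cyclin B1, ran from 44.0 to 235 normalized counts (median 114). Ccnb2 ran from 25.1 to 89.7 (median 46.9). Ccna2 (ENSRNOG00000015423), cyclin A2, had 154 in control 12, and the other 15 libraries lay between 11.3 and 34.0 with a median over all of 23.2. Cdk1 (ENSRNOG00000000632), the kinase these cyclins activate, had 178 in control 12, a highest other value of 62.6, a lowest of 10.6 and a median of 26.7. Plk1, the Polo kinase, ran from 6.00 to 80.9 with a median of 21.1. Melk, a mitotic kinase with a mean of 13.3 ± 13.7 (SD, n = 16), reached 61.1 in control 12. Aurka, Aurora A of the spindle poles, was highest in control 15 at 743 and lowest in control 3 at 219, with a median of 371.

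Spindle checkpoint genes and genes of the anaphase-promoting complex differed in which library was highest. The checkpoint kinase gene Bub1 ran from 62.5 to 457 normalized counts (median 188). Bub1b ran from 12.5 to 103 (median 38.6). Both were highest in control 12 and lowest in control 16. Cdc20, the activator of the anaphase-promoting complex, ran from 165 to 775 (median 442). Ube2c, the ubiquitin-conjugating enzyme of that complex, ran from 503 to 3383 (median 985). These latter genes were highest in control 10. The chromosomal passenger genes divided likewise. The kinase gene Aurkb ran from 76.5 to 226 (median 101) and was highest in control 12. Birc5, survivin, ran from 116 to 419 (median 202) and was highest in control 10. Cdca8, borealin, ran from 98.1 to 347 (median 187) and was highest in control 8.

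Of the spindle motors, Kif11 ran from 59.6 to 254 normalized counts (median 68.1). Kif20a ran from 6.25 to 139.8 (median 27.5). Kif23 ran from 20 to 135 (median 45.3). All of these, and the kinetochore genes, had their highest value in control 12. Cenpe, a kinetochore motor, ran from 20.6 to 127 (median 42.2), and Cenpf ran from 30.8 to 179 (median 58.7). Prc1, which bundles midzone microtubules, varied least of the spindle genes, from 199 to 442 (median 274). Nusap1, a spindle protein, ran from 35.0 to 316 (median 115).

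Tpx2 (ENSRNOG00000008165), which activates Aurora A on the spindle, set a pair of libraries apart. It had 192 normalized counts in control 9 and 183 in control 16, whereas the other 14 libraries lay between 826 and 3042, with a median over all 16 of 1405. Nusap1 and Cdca8 were lowest in the same pair, at 45.0 and 35.0 for Nusap1 and 98.1 and 103 for Cdca8. For Cdca8 the pair was not set apart, because control 11 had 112. Cdc20 went the other way, at 709 and 663 in controls 9 and 16, above its median of 442. Control 16 was the lowest library for 10 of the 38 genes, and the lowest for 4.82% of the 11528 genes whose mean was at least 20. Controls 9 and 16 carry codes C and F.

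The mitotic chromosome genes were Mki67 and Top2a. Mki67 (ENSRNOG00000028137), the proliferation antigen Ki-67, ran from 660.4 in control 9 to 2808 in control 10, with a median of 1146. Top2a (ENSRNOG00000032404), the topoisomerase that untangles sister chromatids, had 612 in control 12. Its other 15 libraries ran from 28.8 to 115, with a median over all 16 of 60.0.

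**Figure D2:**
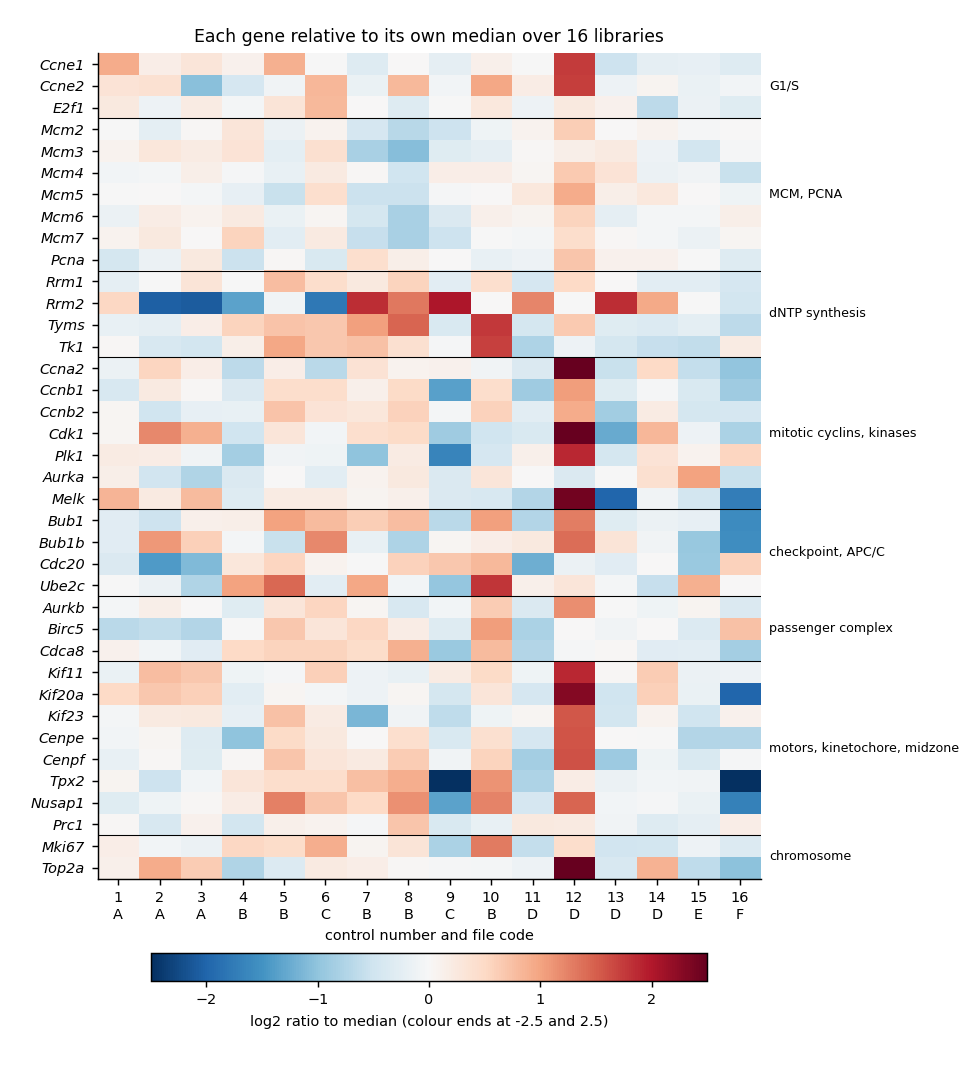
Colour gives the log2 ratio of each gene's normalized count, plus 1, to its own median over 16 libraries. Rows are genes by role and columns are controls with their file code. Column 12 is red for most mitotic genes, Tpx2 is dark blue in controls 9 and 16, and Rrm2 runs from dark blue to dark red.

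Control 12 was the highest library for 23 of the 38 genes (60.5%), compared with 8.81% of the 11528 genes whose mean was at least 20. The 38 include Ccne1 and Melk, whose means of 17.6 and 13.3 fall under that limit. Plk1 had a mean of 23.5, and 19.6 without control 12. Control 12 exceeded the next library more than 2-fold in 8 members (21.1%), compared with 0.494% of those 11528 genes. These were Top2a, Ccna2, Kif20a, Melk, Cdk1, Plk1, Kif11 and Cenpe. For Top2a it was 5.30 times the next highest library. For Ccna2 the ratio was 4.52, for Kif20a 3.12 and for Melk 3.05. Cdk1 had a ratio of 2.84, Plk1 2.59, Kif11 2.18 and Cenpe 2.14. By contrast, control 12 was near the median of the other libraries for Birc5 (ratio 1.01), Rrm2 (0.982), Cdca8 (0.956), Tk1 (0.902) and Cdc20 (0.902). Control 12 also had 4189 normalized counts of Rag1, which cuts antigen receptor genes in developing lymphocytes, compared with at most 23.4 elsewhere. It had 1101 of Dntt and 1965 of the adipocyte gene Fabp4, compared with at most 32.5 and 260.0 elsewhere. All 5 thymocyte and all 5 adipocyte markers were highest in control 12. Their part in the levels of the cycle genes was not tested.

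A second set of 7 members was highest in control 10, and these were Mki67, Tpx2, Birc5, Ube2c, Cdc20, Tyms and Tk1. This library was the highest for 10.3% of the 11528 genes whose mean was at least 20. Alas2, the first enzyme of heme synthesis in red cell precursors and a marker of reticulocytes, was also highest there, at 631489 normalized counts, and lowest in control 11 at 136028. Control 11 was also the lowest library for Birc5 and Tk1, and for 4.20% of those 11528 genes.

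The 36 members with a mean of at least 20 were set against 1 marker gene each of reticulocytes (Alas2), T cells (Cd3e), B cells (Cd79b), plasma cells (Igj) and neutrophils (Camp), on log2(normalized count + 1). This gave 180 relations over 16 libraries, tested two-sided with 100000 permutations and adjusted by the Benjamini-Hochberg method. Of these, 9 had an adjusted p under 0.05. Other genes were not set against these markers, so the 9 cannot be compared with a share over all genes. The values of a library share its scaling factor. Relations are given again without the libraries farthest from the median of the marker, and after each value was centred on the mean of its file code. Controls 15 and 16, each alone in its code, carry no information after centring. The permutations did not keep to the codes, so permutation p-values after centring may be too small.

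Tk1 followed Alas2 most closely. Pearson's r was 0.93 (permutation p = 1e-05, the smallest these permutations can give, adjusted p = 0.0018) and Spearman's rho was 0.94 (permutation p = 1e-05, adjusted p = 0.0018). Without controls 5 and 10, r was 0.88 (permutation p = 0.0001). Centred within file codes, r was 0.88 (adjusted permutation p = 0.0006), and without control 12 it was 0.94. Birc5 had r = 0.81 with Alas2 (permutation p = 0.00021, adjusted p = 0.0126) and rho = 0.73 (permutation p = 0.00189, adjusted p = 0.068). Without controls 5 and 10 its r was 0.67 (permutation p = 0.0096), and centred within codes 0.82. For Cdc20, r was 0.71 (permutation p = 0.00229, adjusted p = 0.047) and rho was 0.71 (permutation p = 0.00307, adjusted p = 0.0687). Without controls 5 and 10 its r was 0.63 (permutation p = 0.0179). Centred within codes it was 0.45 (adjusted permutation p = 0.186). The Cdc20 relation was thus weaker within codes and did not pass the threshold, which does not show that it is absent there.

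Of the 6 MCM genes, Mcm6 and Mcm7 had an adjusted p under 0.05 with the T cell marker, Mcm5 with the plasma cell marker, and Mcm3 and Mcm7 with the neutrophil marker. Mcm6 had r = 0.83 with Cd3e, a chain of the T cell receptor complex (permutation p = 5e-05, adjusted p = 0.0045), and rho = 0.78 (permutation p = 0.00043, adjusted p = 0.0258). Without controls 8 and 12, r was 0.71 (permutation p = 0.00498), and centred within codes 0.92. Mcm7 had r = 0.72 with Cd3e (permutation p = 0.00135, adjusted p = 0.0347) and rho = 0.61 (permutation p = 0.0128, adjusted p = 0.115). Without those libraries its r was 0.53 (permutation p = 0.0472), and centred within codes 0.75. Mcm5 had r = 0.72 with the plasma cell gene Igj (permutation p = 0.00132, adjusted p = 0.0347) and rho = 0.69 (permutation p = 0.00398, adjusted p = 0.0687). Without controls 6 and 12 its r was 0.53 (permutation p = 0.0531), and centred within codes 0.47 (adjusted permutation p = 0.164). The Mcm5 relation was thus weaker in both settings and passed the threshold of 0.05 in neither. This does not show that it is absent within codes.

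Camp encodes a granule peptide of neutrophils and ran from 125 normalized counts in control 6 to 6353 in control 8. Mcm7 had r = -0.74 with Camp (permutation p = 0.00076, adjusted p = 0.0274) and rho = -0.83 (permutation p = 0.00021, adjusted p = 0.0189). Without controls 8 and 14 it was -0.73 (permutation p = 0.00269), and centred within codes -0.91. Mcm3 had r = -0.76 (permutation p = 0.00047, adjusted p = 0.0211) and rho = -0.77 (permutation p = 0.00086, adjusted p = 0.0387). Without controls 8 and 14 its r was -0.74 (permutation p = 0.00237), and centred within codes -0.88. Rrm2 went the other way, with r = 0.72 (permutation p = 0.00235, adjusted p = 0.047) and rho = 0.69 (permutation p = 0.00429, adjusted p = 0.0687). Without controls 8 and 14 it was 0.72 (permutation p = 0.00421), and centred within codes also 0.72. Cd3e and Camp themselves had r = -0.58, so these relations are not independent of each other. Without control 12 the adjusted permutation p rose above the threshold for Cdc20 with Alas2 (0.0603), Mcm7 with Cd3e (0.0737), Mcm5 with Igj (0.1) and Rrm2 with Camp (0.0616). It fell below the threshold for Cenpf with Alas2 (r = 0.50 and adjusted permutation p = 0.199 in 16 libraries, 0.87 and 0.0063 in 15) and for Tyms with Alas2 (0.69 and 0.0541, then 0.74 and 0.0463). In the 12 libraries without controls 2, 8, 10 and 12, Tk1 and Cenpf kept an adjusted permutation p under 0.05 with Alas2 (0.0036 and 0.0252), and none of the other relations named here did.

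**Figure D3:**
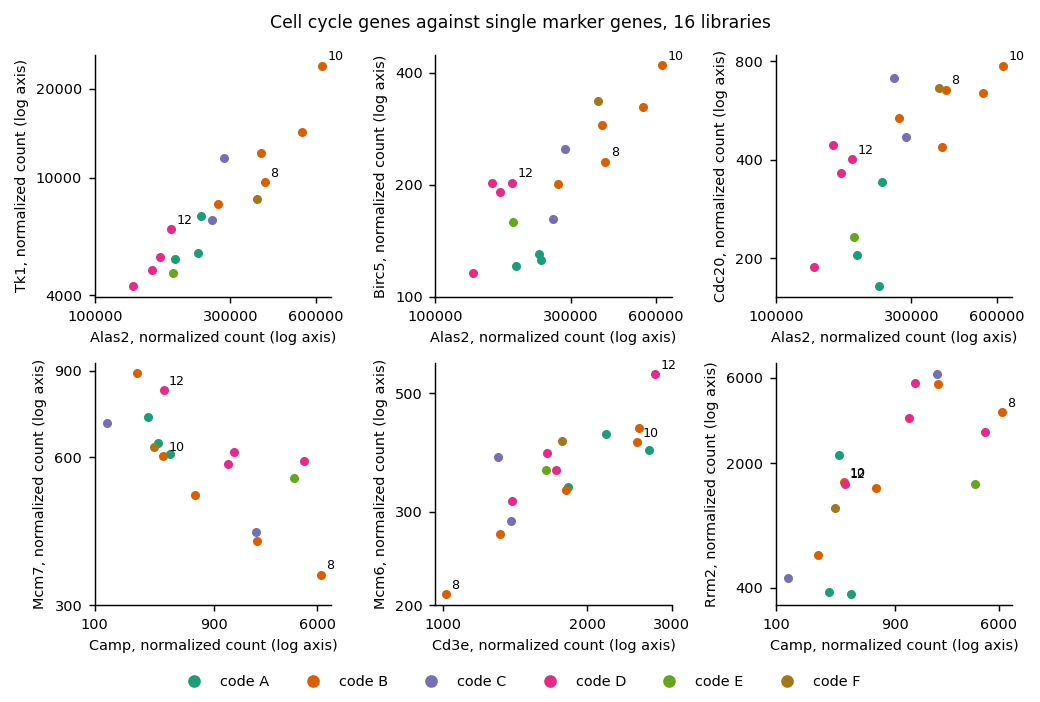
Normalized counts of 6 members against a marker gene, both on log axes. Points are the 16 libraries, coloured by file code, with controls 8, 10 and 12 numbered. Tk1, Birc5 and Cdc20 rise with Alas2, Mcm6 rises with Cd3e, and Mcm7 falls and Rrm2 rises with Camp.

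The 38 genes did not move as 1 block. Over all pairs of members, Spearman's rho across the 16 libraries had a median of 0.24, and 0.15 without control 12. The median over all pairs of those 11528 genes was -0.01. The highest values were 0.97 for Bub1 with Nusap1 and 0.96 for Tpx2 with Tyms, and the lowest was -0.69 for Mcm6 with Rrm2. Within groups, the median was 0.40 for the MCM genes with Pcna, 0.39 for the spindle genes and 0.35 for the mitotic cyclins and kinases, and without control 12 these were 0.31, 0.28 and 0.24. It was 0.34 for the regulators of S phase entry, 0.31 for the chromosomal passenger genes, 0.27 for deoxynucleotide synthesis and 0.19 for the checkpoint and anaphase-promoting genes. Without control 12 these were 0.20, 0.36, 0.30 and 0.11, so not every group fell. Mki67 with Top2a, the 1 pair of its group, had 0.09, and 0.03 without control 12. All these values share the scaling factors and are given as a description.

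Among 9602 other genes with a symbol and a mean of at least 50, those whose CPM followed the summed CPM of the 38 genes best over 16 libraries were Nek2l1 (rho 0.885), Faf1 (0.876), Kif4a (0.835), Tubb4b (0.832), Spag5 (0.824), Blm, Ipp and Slc11a2 (0.806 each), Ppp2r5b (0.803) and Rsad2 (0.80). Kif4a is a mitotic kinesin, Spag5 a spindle protein and Blm a DNA helicase, while the others on this list were not sorted by function. Tk1 alone made up 25.4% to 54.5% of the summed counts. Over the 15 libraries without control 12 the order was Nek2l1 (0.882), Spag5 (0.879), Fbxo42 (0.864), E2f2, Faf1 and Rad52 (0.857 each), Rsad2 (0.85), Clec16a and Slc22a4 (0.836 each) and SLC25A51 (0.832). Nek2l1, Faf1, Spag5 and Rsad2 were on both lists.

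The libraries of codes A (n = 3), B (n = 5) and D (n = 4) were compared with edgeR's quasi-likelihood test over 12952 genes. Nothing in the labels says what differs between codes. The p-values set a difference in means against the spread between rats within codes. Rats of 1 code are not replicates of that code, so variation from code to code was not measured. All comparisons share libraries with each other. For B minus A, 0 of the 38 genes had a Benjamini-Hochberg adjusted p under 0.05 in edgeR, where 0% of all genes did. At an unadjusted p under 0.05 there were 9, all higher in B, where 13.6% of all genes passed. These were Ube2c, Cdc20, Tyms, Birc5, Tk1, Nusap1, Bub1, Tpx2 and Cdca8. The direction among the members passing this threshold depended on the scaling. Under total count scaling 6 members passed, 3 higher and 3 lower, where 23.4% of all genes passed. The median log2 fold change of the members was then -0.43 in place of 0.10, with -0.50 over all genes. The 9 genes named above still had a higher mean CPM in B than in A. All 5 reticulocyte markers were also higher in B at an unadjusted p under 0.05, with a median log2 fold change of 1.13, as were 3 of 6 markers of erythroid progenitors. Their part in these differences was not tested. DESeq2, run as an alternative, called 7 of the 38 genes at an adjusted p under 0.05, against 4.35% of all genes. Without control 4, edgeR called 4 members for B minus A and 3.93% of all genes. For D minus A, edgeR called 0 of the 38, with 0% of all genes called. No member had an unadjusted p under 0.05, where 5.41% of all genes did. DESeq2 called 0 members and 0.108% of all genes.

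For D minus B, edgeR called 2 of the 38 genes, both lower in D, where 2.30% of all genes were called. Of those 298 called genes, all but 5 were lower in D, so this direction was not particular to the members. Cdca8 had 263, 275, 256, 347 and 324 normalized counts in controls 4, 5, 7, 8 and 10 of code B. It had 112, 182, 191 and 154 in controls 11 to 14 of code D. The codes did not overlap, and the fold change on the log2 scale was -0.86 ± 0.18 (SE) at an edgeR adjusted p of 0.0367. Tk1 had 8135, 14228, 12142, 9669 and 23906 in code B. It had 4300.1, 6691, 5403 and 4883 in code D. Again the codes did not overlap, with -1.35 ± 0.31 (SE) on the log2 scale at an edgeR adjusted p of 0.0446. Both genes were named because they were called, so the lack of overlap is no separate evidence. Its share over all genes was not counted.

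At an unadjusted p under 0.05, 13 of the 38 passed for D minus B, where 11.3% of all genes did. Of these, 5 were higher in D (Mcm5, Top2a, Plk1, Bub1b and Kif11) and 8 lower. This split depended on the scaling and on control 12. Under total count scaling 17 members were higher and 1 lower, where 26.4% of all genes passed and the median log2 fold change of the members was 0.78. Without control 12, 1 was higher and 12 lower, where 11.8% of all genes passed. The log2 fold changes of Plk1, Bub1b and Kif11 were then 0.45, 0.44 and 0.23. In Mcm5 the difference was 0.81 ± 0.20 on the log2 scale (SE), with an edgeR adjusted p of 0.0557. Tyms gave -1.20 ± 0.30, with 0.0594 as its edgeR adjusted p, and Tpx2 -0.88 ± 0.23, with 0.074. Top2a gave 1.93 ± 0.65, with 0.189, and 0.41 without control 12. DESeq2 called 7 members, 2 of them higher in D, and 5.73% of all genes. The median log2 fold change of the 38 genes was 0.24, and -0.23 without control 12, against 0.04 over all genes tested.

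The calls for Cdca8 and Tk1 were lost when single libraries were left out, while the log2 fold changes stayed between -0.97 and -0.73 for Cdca8 and between -1.49 and -1.04 for Tk1. The count of 2 became 0 when 1 of controls 5, 7, 10, 11, 12, 13 or 14 was left out. It became 1 without control 1, 2 or 3. Without control 4 it was 5, where 5.44% of all genes were called. Without control 8 it stayed 2, with Ube2c called in place of Cdca8, where 1.67% of all genes were called. Without control 12 the adjusted p in edgeR was 0.0809 for Cdca8 and 0.0875 for Tk1. Without controls 2, 8, 10 and 12, neither was called, at log2 fold changes of -0.79 and -1.23. Scaling by total counts moved the median log2 fold change of all genes to 0.53 for D minus B and left no member called, with Cdca8 at -0.34 and Tk1 at -0.75 and both still lower in D. All 5 reticulocyte markers that were found, Alas2 among them, were called lower in D by edgeR, with a median log2 fold change of -1.23. Alas2 ran from 271109 to 631489 normalized counts in code B and from 136028 to 185811 in code D. Of 6 markers of erythroid progenitors, Gata1 was called lower in D and 4 were lower at an unadjusted p under 0.05. Of 7 plasma cell markers, Igj was called higher and 4 were higher at an unadjusted p under 0.05. The thymocyte markers had a median log2 fold change of 3.95, with 0 of 3 called, and their sum within code D ran from 25.4 CPM to the 364 CPM of control 12. The part of RNA from these cells in the differences of the members was not tested.

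**Figure D4:**
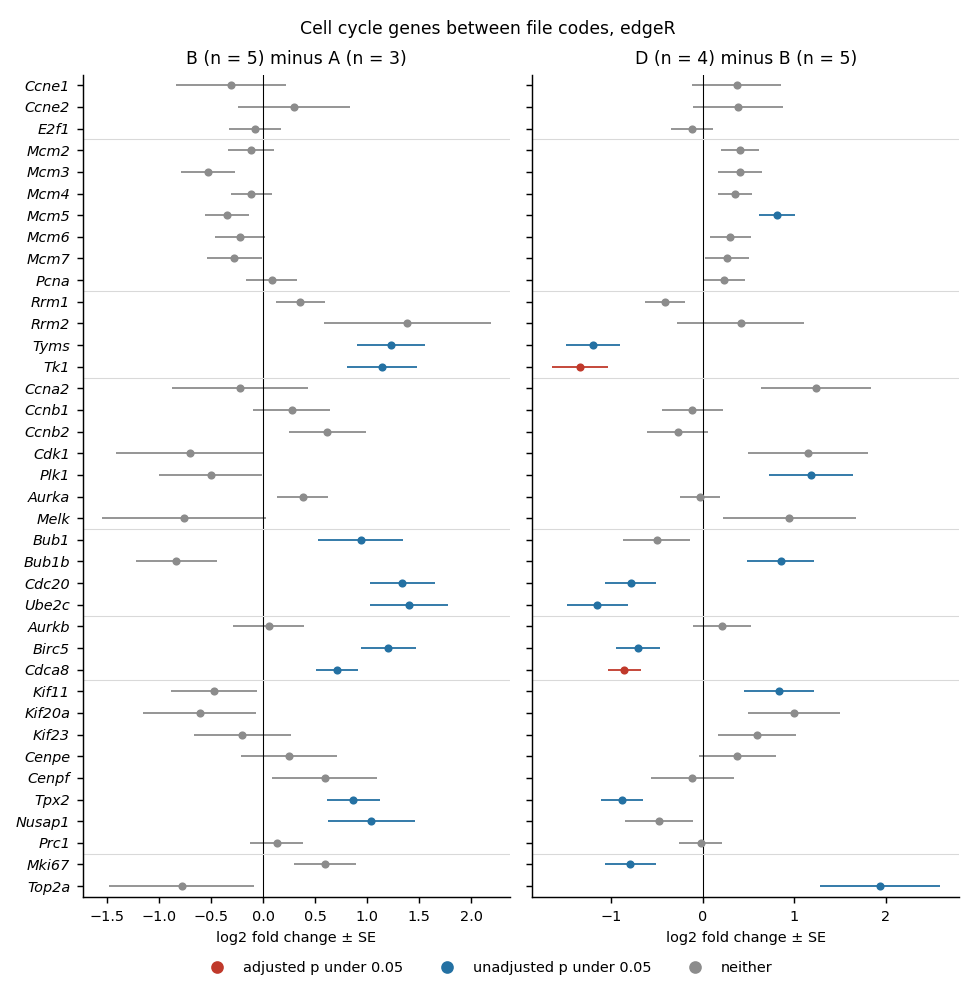
Log2 fold change of each of the 38 genes between file codes, with the SE from edgeR. Left, B (n = 5) minus A (n = 3). Right, D (n = 4) minus B (n = 5). The genes with an adjusted p under 0.05 in red are Tk1 and Cdca8, in D minus B, and blue marks an unadjusted p under 0.05.

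Other genes of the same pathways were counted in the same fits. For D minus B, 2.30% of all genes were called by edgeR, all but 5 of them lower in D, and 11.3% had an unadjusted p under 0.05. Of 34 other replication genes found, 0 were called and 2 (5.88%) had an unadjusted p under 0.05. The genes with the most counts, a rule for naming and not a ranking of levels, were Dnmt1, the maintenance methyltransferase (554 ± 143 normalized counts, SD, n = 16), Rpa2 (434 ± 92.7) and Lig1 (299.9 ± 70.6). Of 38 other mitotic genes found, 2 were called, Kif4a and Cdc25b, both lower in D, and 6 (15.8%) had an unadjusted p under 0.05, all lower. Cdc25b, a phosphatase that activates CDK1, averaged 166954 ± 71287 and was highest in control 10, as was Pttg1, securin, at 3834 ± 2664. Hmgb2 averaged 2732 ± 1358 and was highest in control 15. Of 18 inhibitors and G1 regulators found, 0 were called and 1 (5.56%) had an unadjusted p under 0.05. Btg1, an antiproliferative gene, averaged 14104 ± 2096, Btg2 5814 ± 1978 and Ccnd3, cyclin D3, 5083 ± 1671. Control 12 was highest in 20 of the 34 replication genes, 23 of the 38 mitotic genes and 3 of the 18 inhibitors and G1 regulators. It was highest for 8.81% of the 11528 genes whose mean was at least 20, a limit that some genes of these lists did not reach. For B minus A and D minus A, 0 genes of these lists were called by edgeR. At an unadjusted p under 0.05 the other mitotic genes had 10 in B minus A (26.3%, against 13.6% of all genes), 9 of them higher in B.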

How the data were processed

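The authors clipped the reads, aligned them with Bowtie 0.12.9 to the transcripts of Ensembl release 70 (genome build rn5) and estimated counts with RSEM 1.2.0. Per the submitters' processing notes, CASAVA 1.8.2 was also used. The deposited estimated counts are not normalized. Libraries were depleted of globin mRNA, selected for polyadenylated RNA and strand-specific. Files listed 18677 to 26405 genes depending on the code that opens their names, so the 18031 genes in every file were used.

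Counts were rounded to whole numbers. Normalized counts are counts divided by size factors (median of ratios) over the 16 libraries, and log2 values use a pseudocount of 1. Where several entries shared a symbol, the entry with the highest total was taken. The 12 libraries of codes A, B and D were fitted with edgeR 4.0.16 (R 4.3.3; TMM, filterByExpr, quasi-likelihood F-test), with Benjamini-Hochberg adjustment over all 12952 genes tested and a threshold of 0.05. DESeq2 1.42.0 was an alternative. Relations used 100000 permutations. Both scripts were tested on simulated data. Other steps ran in Python 3.11.15 with pandas 2.3.3, numpy 2.4.6, matplotlib 3.10.9 and scipy 1.17.1. Shares and floors cover counting error only, and 3 counts correspond to 0.0962 to 0.14 CPM.

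The members and the lists of pathway and marker genes were chosen with earlier results of these data known. Every member is accounted for, with its lowest, median and highest value where its mean is at least 20. From each pathway list the 3 genes with the most counts are named. The 10 other genes were named by Spearman's rho with the summed CPM of the members, over 16 and over 15 libraries. Promoter sequences are from RefSeq (GRCr8), of which 30 of the 38 members matched, and their coordinates are not those of the build used for counting. Dixon's ratio was applied to summed levels within codes B and D.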

Additional observations from a re-analysis of the deposited data

Results flagged for a closer look

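Summed CPM of the 38 genes, of their 8 functional groups and of the members without Tk1 was checked for a library far from the others within code B (5 libraries) and code D (4 libraries), by Dixon's ratio of the gap to the range at the 95% level. Of 20 sets of libraries checked, 2 passed, and chance flags about 1 in 20. In code D, control 12 was the highest for the mitotic chromosome genes Mki67 and Top2a, at 108 CPM, and the next library had 38.7 CPM. In code B, control 4 was the highest for the MCM genes with Pcna, at 180.0 CPM, and the next had 95.6 CPM.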

How the results depend on the processing

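Depth limits the members with few counts, such as Melk, whose lowest library held 2 counts. Members called by edgeR for D minus B were 2 as reported, 7 with DESeq2 and 0 with total count scaling, without the filter on low counts, with all 16 libraries, or without controls 2, 10 and 12 or 2, 8, 10 and 12. Of all genes tested, 2.30% were called for D minus B as reported, 5.73% with DESeq2, 0.0463% with total count scaling, 1.16% without the filter on low counts 0.00773% without controls 2, 10 and 12 and 0% without controls 2, 8, 10 and 12. For B minus A, DESeq2 called 7 members and 4.35% of genes, and 0.00773% were called without controls 2, 10 and 12 and 0.00781% without control 8 as well. For D minus A, DESeq2 called 0.108% and the fit with all 16 libraries 0.00703%. Leaving out 1 library at a time gave 0 to 4 members and 0% to 3.93% of genes for B minus A, 0 members and 0% to 0.015% for D minus A, and 0 to 5 members and 0.0155% to 5.44% for D minus B. The highest for B minus A and D minus B came without control 4, and the lowest for D minus B without control 14. Under 18 alternatives the log2 fold change of Cdca8 stayed negative, with an edgeR or DESeq2 adjusted p under 0.05 in 5 (range 0.00115 to 0.31), and that of Tk1 stayed negative with 3 (0.000418 to 0.18). Members related to a marker numbered, as reported, 3 for Alas2, 2 for Cd3e, 0 for Cd79b, 1 for Igj and 3 for Camp. By Spearman's rho they were 1 for Alas2, 1 for Cd3e and 0 for Igj. Without control 12 they were 1 for Cd3e and 0 for Igj. Centred within codes, where the permutation p-values may be too small, they were 7 for Cd3e, 3 for Cd79b, 4 for Igj and 11 for Camp. Without controls 2, 10 and 12, a choice made like the other uses of that setting after seeing the data, they were 1 for Cd3e, 2 for Cd79b, 0 for Igj and 1 for Camp. Without control 8 as well, also chosen after seeing the data, they were 2 for Alas2 and 0 for Cd3e, Cd79b, Igj and Camp. The median CV of the members was 51.6%, and 43.7% on CPM without globin genes, 34.9% without control 12, 35.7% without controls 2, 10 and 12 and 35.9% without control 8 as well. Control 12 was the highest library for a number of members within 1.5 times the reported 23 under both other scalings, and the mean summed level moved by less than 1 SD. No paired analysis was possible because the labels give only 1 group. The causes of these shifts were not tested.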
